A study of Homo sapiens with 12 samples.

Results

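The 10 genes described here are the core of the NF-κB pathway: the transcription factor subunits NFKB1, NFKB2, RELA and RELB, the inhibitors NFKBIA and TNFAIP3, the apoptosis inhibitor BIRC3, and the chemokines CXCL1, CXCL2 and IL8 (CXCL8 in current nomenclature). They were taken by name from the 56537 gene names in a table of transcript levels, and the level of a gene is the sum over those of its transcript models that matched an annotated transcript or shared at least 1 splice junction with one. There were 102 such models for the 10 genes together. Levels are given in FPKM, which counts fragments relative to the length of the transcript and to the number of fragments mapped in the library. Of the 10 genes, 9 passed the filter of a summed FPKM above 0.5 in at least 3 libraries, as did 16680 gene names in all; CXCL2 did not.

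HCT116, an established line, derives from a human colorectal cancer. Cells plated 24 h earlier were moved into 1% oxygen for 1, 2 or 24 h, and cells at 21% oxygen served as the 0 h group, with 3 libraries of polyadenylated RNA at each time and 12 in all. The labels call the 3 libraries of a time point biological replicates. Whether the 0 h and 24 h cells had spent equally long on the plate is not given in the sources used here, so at 24 h hypoxia and the time in culture cannot be told apart. The deposited values carry no read counts, so no counting interval is given and the spread between 3 replicates is the measure of precision.

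NF-κB factors are dimers that sit in the cytoplasm of a resting cell bound to inhibitor proteins. In the canonical route a kinase complex marks the inhibitor IκBα for destruction and dimers of RELA with the processed NFKB1 product enter the nucleus. In the alternative route the kinase MAP3K14 drives processing of the NFKB2 precursor, which frees dimers with RELB. The targets include the genes of the inhibitors themselves, so that the response limits itself, and chemokines that attract neutrophils. In epithelial tumours the pathway is known for inflammation and for survival of cells.

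The starts of these genes were searched for the motifs of NF-κB. The promoter windows of 9 of the 10 genes (250 bases before and 50 bases from each start site on) came from RefSeq in the GRCh38.p14 build and were found again by exact match in hg19, whose coordinates are used here. The κB consensus was searched on both strands. It occurred in 3956 of 35116 windows of all genes (11.3%) and in 8 of the 13 windows of the 9 genes. The 7 genes with a match in at least 1 window were NFKB1, NFKB2, NFKBIA, TNFAIP3, BIRC3, CXCL1 and CXCL2. The shorter motif GGAATTTCC, found in 162 windows of all genes (0.461%) and able to lie inside the consensus, occurred at NFKB1, NFKBIA, CXCL1, CXCL2 and IL8. Neither was in the windows of RELA. The hypoxia response core ACGTG, present in 7518 windows (21.4%), was found only at TNFAIP3 among the 9 genes. All 3 windows of NFKB2 are shown because its transcripts start at different places, those of BIRC3 and NFKBIA because these genes were higher at 24 h, and those of CXCL1 and RELA because one has the motif and little RNA and the other has RNA and no match. Letters in capitals are matches to the κB consensus, with adjoining capitals for overlapping matches:
NFKB2, downstream start, chr10:104155212-104155511, plus strand: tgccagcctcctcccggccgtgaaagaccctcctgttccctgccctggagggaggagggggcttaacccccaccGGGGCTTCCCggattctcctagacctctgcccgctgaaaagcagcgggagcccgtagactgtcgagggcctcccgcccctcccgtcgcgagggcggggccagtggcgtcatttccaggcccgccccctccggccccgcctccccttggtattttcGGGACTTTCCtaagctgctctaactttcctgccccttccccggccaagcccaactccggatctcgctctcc
NFKB2, upstream start, chr10:104153617-104153916, plus strand: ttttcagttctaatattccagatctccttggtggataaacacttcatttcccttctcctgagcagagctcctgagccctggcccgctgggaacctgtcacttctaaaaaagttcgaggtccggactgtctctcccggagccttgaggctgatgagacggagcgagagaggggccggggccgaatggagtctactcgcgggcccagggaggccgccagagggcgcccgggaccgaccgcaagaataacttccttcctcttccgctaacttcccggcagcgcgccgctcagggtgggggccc
NFKB2, middle start, chr10:104154085-104154384, plus strand: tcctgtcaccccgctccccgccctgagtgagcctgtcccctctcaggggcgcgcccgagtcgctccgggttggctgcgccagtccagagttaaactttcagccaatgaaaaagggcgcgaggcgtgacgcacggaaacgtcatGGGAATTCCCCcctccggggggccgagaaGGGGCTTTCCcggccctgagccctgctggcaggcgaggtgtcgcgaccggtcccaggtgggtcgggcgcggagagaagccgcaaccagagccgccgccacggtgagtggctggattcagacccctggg
BIRC3, chr11:102187965-102188264, plus strand: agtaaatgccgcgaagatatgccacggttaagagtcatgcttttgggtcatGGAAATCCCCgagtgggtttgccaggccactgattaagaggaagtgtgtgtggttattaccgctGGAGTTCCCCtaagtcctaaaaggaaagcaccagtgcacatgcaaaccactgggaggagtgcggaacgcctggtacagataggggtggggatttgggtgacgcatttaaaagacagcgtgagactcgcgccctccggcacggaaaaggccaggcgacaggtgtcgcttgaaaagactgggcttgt
NFKBIA, chr14:35873906-35874205, minus strand: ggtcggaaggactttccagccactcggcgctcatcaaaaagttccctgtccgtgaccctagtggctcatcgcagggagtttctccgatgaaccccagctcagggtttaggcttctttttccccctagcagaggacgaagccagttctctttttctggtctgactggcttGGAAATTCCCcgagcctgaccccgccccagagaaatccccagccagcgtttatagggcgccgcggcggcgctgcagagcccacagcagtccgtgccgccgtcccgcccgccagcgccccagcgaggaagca
CXCL1, chr4:74734860-74735159, plus strand: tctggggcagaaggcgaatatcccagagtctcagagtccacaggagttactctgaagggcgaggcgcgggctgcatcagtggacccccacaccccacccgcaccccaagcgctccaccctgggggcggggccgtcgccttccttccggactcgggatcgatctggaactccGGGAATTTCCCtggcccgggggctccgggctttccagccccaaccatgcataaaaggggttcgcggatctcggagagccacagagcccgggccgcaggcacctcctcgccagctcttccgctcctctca
RELA, chr11:65430338-65430637, minus strand: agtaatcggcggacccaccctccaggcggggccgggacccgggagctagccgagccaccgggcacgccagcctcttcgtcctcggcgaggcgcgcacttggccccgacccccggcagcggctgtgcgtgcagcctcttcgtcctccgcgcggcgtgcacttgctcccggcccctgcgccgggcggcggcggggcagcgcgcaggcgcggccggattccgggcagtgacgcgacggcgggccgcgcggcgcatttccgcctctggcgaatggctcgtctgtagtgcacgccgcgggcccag
The downstream NFKB2 window holds matches at -176 to -167 and at -21 to -12, the middle one holds 3, at -107 to -98, -106 to -97 and -78 to -69, and the upstream one none. The BIRC3 window holds matches at -199 to -190 and -135 to -126, and the NFKBIA window at -81 to -72, in bases from the start site, which is counted as 0. These are matches of letters in a window and not measured binding.

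Before the members, the labels and the cells were checked. At 24 h the hypoxia genes CA9, NDRG1, ANKRD37 and VEGFA were all higher than at 0 h, by log2 fold changes of 3.13, 5.34, 5.45 and 1.90. CA9 passed the filter only with the 24 h libraries counted. All 5 epithelial markers were expressed, with a summed level of 1998 to 2820 FPKM at 0 h and 2491 to 2730 at 24 h. Of the 5, CDH1 was called higher at 24 h (log2 fold change 1.76), KRT19 was at 0.99, and EPCAM, KRT8 and KRT18 were at -0.28, -0.16 and -0.20 and not called. Of 6 leukocyte markers only CD68, a lysosomal protein, passed the filter. CD68 was called higher at 24 h (log2 fold change 2.04). The summed leukocyte level was 1.88 to 2.38 FPKM at 0 h and 7.06 to 14.4 at 24 h, nearly all of it CD68, while the defining markers PTPRC, CD3E and MS4A1 were at or near 0 in every library. Of 5 fibroblast markers COL1A1 passed and was called higher at 1.59 (sum 1.82 to 2.16 FPKM at 0 h, 5.77 to 8.83 at 24 h), and none of 4 endothelial markers did. The part of CDH1, CD68 and COL1A1 in the results below was not tested. Across all gene names 1462 were called higher at 24 h and 1586 lower, where a call required a log2 fold change beyond 1 in either direction together with an adjusted p below 0.01. After TPM scaling, which sets each library to the same sum, the split was 209 higher and 3995 lower, with the median of all genes at -0.78 on the log2 scale. Transcripts under 300 bases held between 57.0% and 87.7% of all FPKM in a library, so TPM divides by a sum that is mostly short transcripts.

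Of the 4 factor subunits, NFKB2 was the only one called at 24 h against 0 h. NFKB2 (chr10:104153867-104162281), the gene of the p100 precursor, was 32.2, 27.3 and 30.4 FPKM at 0 h, 28.6, 30.1 and 31.3 at 1 h, 35.7, 30.9 and 32.0 at 2 h, and 84.8, 69.6 and 79.0 at 24 h. The 24 h libraries lay well above all 9 others, which overlapped. The log2 fold change at 24 h was 1.36 ± 0.10 (SE, n = 3 per group; adjusted p = 1e-06), a 2.56-fold rise in FPKM plus 0.5. NFKB2 and BIRC3 were the 2 of 9 tested members called higher at 24 h, beside 8.76% of all gene names called higher by the same rule. Of the 9, BIRC3, IL8 and CXCL1 passed the filter only with hypoxic libraries counted, so this count is a description. No tested member was called lower, beside 9.51% of all gene names. Both calls were lost under TPM scaling, where NFKB2 was at 0.49 and BIRC3 at 0.79, against a median of all genes of -0.78. With TPM over transcripts of 300 bases or more both genes stayed called. No member was called at 1 or 2 h, where 1 and 3 gene names were called higher (0.00600% and 0.0180%) and none lower.

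**Figure D1:**
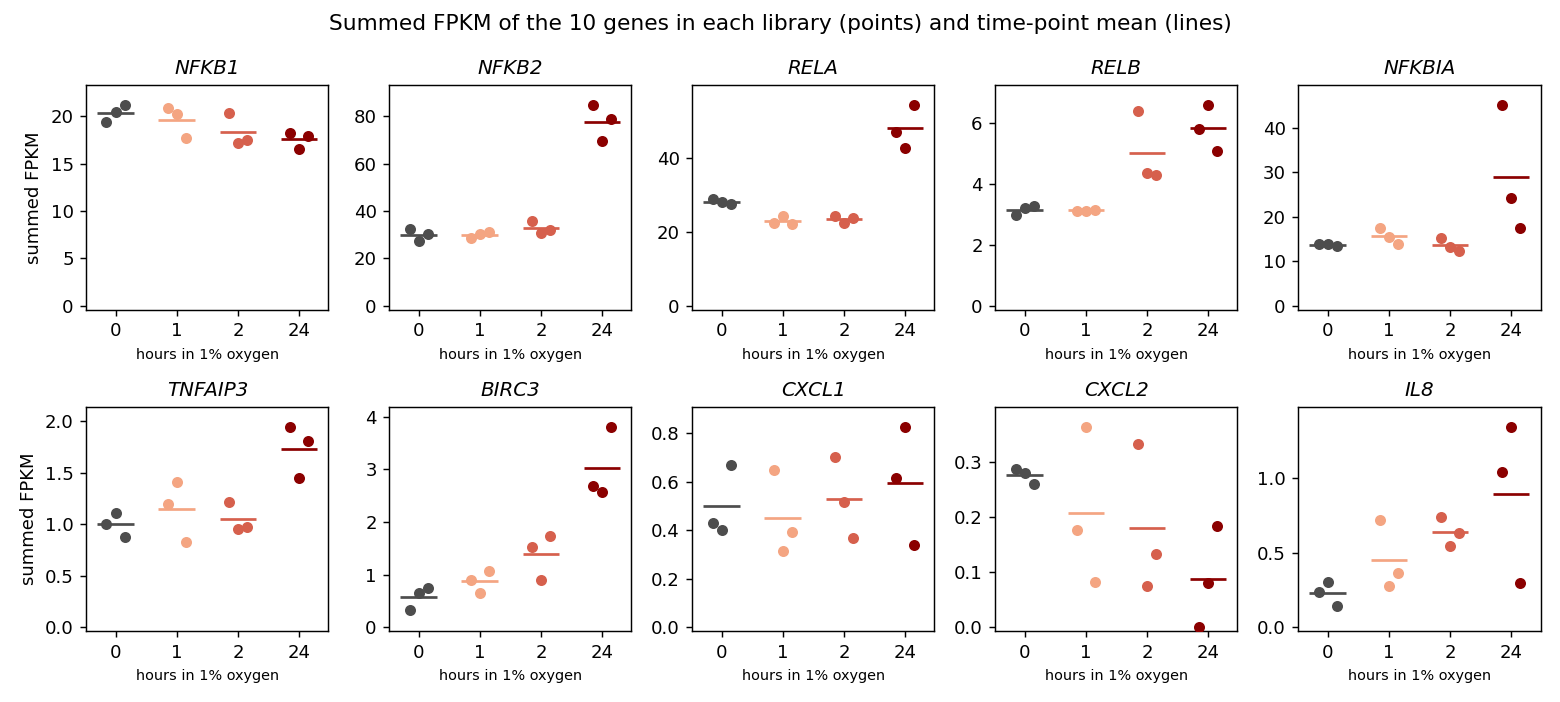
Summed FPKM (vertical axis, linear, from 0) of the 10 genes against hours in 1% oxygen (0 h is 21% oxygen), with 1 point per library and a line at the mean of 3 libraries. The 24 h points of NFKB2 and RELA lie above all earlier ones, while the points of CXCL1 overlap at all times.

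RELB (chr19:45504719-45541450), the usual partner of processed NFKB2, was at 3.00, 3.21 and 3.27 FPKM at 0 h and at 3.13, 3.11 and 3.16 at 1 h. At 2 h it was 6.42, 4.36 and 4.28, and at 24 h 5.80, 6.60 and 5.10. Every 2 h and every 24 h library exceeded every 0 h library. The change at 2 h was 0.57 ± 0.16 on the log2 scale (adjusted p = 0.14) and at 24 h 0.79 ± 0.16 (adjusted p = 0.0011), past the p threshold but under the fold threshold. Under TPM the value at 2 h turned to -0.33 and that at 24 h was 0.02, which are 0.61 and 0.81 above the medians of all genes on that scale. At 24 h RELB was called with class code = only (1.16) and with the filter set on transcripts (1.02). Its models share a Cufflinks locus with CLASRP, and their reads were divided by the authors' assembly.

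RELA (chr11:65421070-65430561), the p65 subunit with the activation domain, was 29.0, 28.0 and 27.5 FPKM at 0 h, then 22.4, 24.2 and 22.2 at 1 h and 24.3, 22.5 and 23.8 at 2 h. At 24 h it was 47.1, 42.7 and 54.4. All 1 h and 2 h libraries were below all 0 h libraries and all 24 h libraries above them. The differences were -0.29 ± 0.10 at 1 h (adjusted p = 1), -0.25 ± 0.10 at 2 h (adjusted p = 0.25) and 0.75 ± 0.10 at 24 h (adjusted p = 4.6e-05, under the fold threshold). Under TPM the 24 h value turned to -0.10, which is 0.68 above the median of all genes on that scale. Against 2 h, RELA at 24 h was called, at 1.01 ± 0.10 (adjusted p = 7.1e-06), as was NFKB2 at 1.23 ± 0.10 (adjusted p = 2.5e-06). They were the 2 members called in that contrast, in which 7.44% of all gene names were called higher and 7.28% lower. At an adjusted p under 0.05 with no fold threshold 5 members were higher and none lower in it, beside 23.2% and 27.4% of all gene names. The RELA call is close to the threshold and was lost without 2 h replicate 2 (0.98) and without 24 h replicate 3 (0.92), with a pseudocount of 1 (0.99), with class code = only (0.88) and with TPM over transcripts of 300 bases or more (0.95). Under TPM over all transcripts both calls were lost, with NFKB2 at 1.41 (adjusted p = 0.027) and RELA at 1.18 (adjusted p = 0.073).

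NFKB1 (chr4:103422487-103538459), the gene of p105 and p50, was 19.4, 20.4 and 21.2 FPKM at 0 h, 20.8, 20.3 and 17.7 at 1 h, 20.3, 17.2 and 17.5 at 2 h, and 18.3, 16.5 and 17.9 at 24 h. The 24 h libraries lay below the 0 h libraries, with a log2 difference of -0.21 ± 0.10 (adjusted p = 0.11), and the gene was not called. Under TPM the difference was -1.01, also not called, which is -0.23 relative to the median of all genes on that scale. The ratio of NFKB2 to NFKB1 within a library was 1.48 ± 0.167 (SD, n = 3) at 0 h, 1.79 ± 0.0375 at 2 h and 4.42 ± 0.217 at 24 h. In summed FPKM the order at 0 h was NFKB2 and RELA, whose ranges overlapped, then NFKB1, NFKBIA and RELB. At 24 h NFKB2 was the highest and RELA the next, and their ranges did not overlap.

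Among the inhibitors, NFKBIA (chr14:35870285-35873955), which encodes IκBα, was 13.9, 13.9 and 13.4 FPKM at 0 h, 17.5, 15.4 and 13.8 at 1 h and 15.3, 13.2 and 12.4 at 2 h. At 24 h the libraries ranged widely, at 45.2, 24.1 and 17.6, all above the 0 h values. The change was 0.94 ± 0.25 (adjusted p = 0.0069), under the fold threshold, and 0.11 under TPM, which is 0.89 above the median of all genes on that scale. It was 0.57 without 24 h replicate 1, and 1.24 and called without 24 h replicate 3. TNFAIP3 (chr6:138188351-138204451), the ubiquitin-editing enzyme A20, was 0.879 to 1.12 FPKM at 0 h, 0.827 to 1.42 at 1 h and 0.957 to 1.21 at 2 h, and 1.95, 1.45 and 1.81 at 24 h. Its change at 24 h was 0.57 ± 0.18 (adjusted p = 0.016), and -0.02 under TPM, which is 0.76 above that median. With the filter set on transcripts, which leaves only ENST00000237289, TNFAIP3 was at 1.00 and called. That model passed the filter only with hypoxic libraries counted.

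BIRC3 (chr11:102188215-102210134), a ubiquitin ligase that guards cells against death downstream of TNF receptors, was called higher at 24 h. It was 0.338, 0.652 and 0.740 FPKM at 0 h, 0.909, 0.646 and 1.07 at 1 h, 1.53, 0.896 and 1.73 at 2 h, and 2.68, 2.58 and 3.81 at 24 h. The 1 h values overlapped 0 h and the 2 h and 24 h values did not. The log2 change was 0.36 ± 0.23 at 1 h, 0.80 ± 0.23 at 2 h (adjusted p = 0.16) and 1.71 ± 0.23 at 24 h (adjusted p = 6.9e-05). Over the alternative runs the 2 h value lay between 0.056 and 1.14 and was never called. The main BIRC3 model, ENST00000263464, was called by itself at 1.84 ± 0.27 (adjusted p = 0.00061, limma on transcripts). The gene and this model passed the filter only with hypoxic libraries counted, so both calls are descriptions. On a scale of log2 of FPKM plus 0.5 the change of so low a gene is understated.

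**Figure D2:**
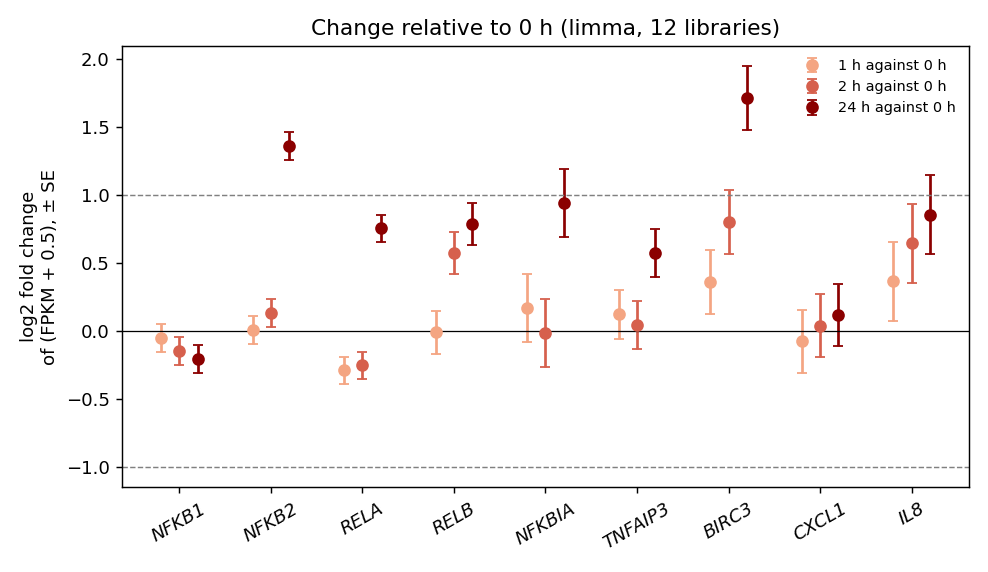
Log2 fold change (FPKM plus 0.5) with its standard error for the 9 tested genes at 1, 2 and 24 h against 0 h. Dashed lines mark the fold threshold of 1. NFKB2 and BIRC3 are above it at 24 h, and no gene is at 1 or 2 h.

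The chemokines stayed low. CXCL1 (chr4:74735110-74737025) was 0.428, 0.401 and 0.671 FPKM at 0 h, 0.315 to 0.647 at 1 h, 0.368 to 0.704 at 2 h and 0.617, 0.827 and 0.340 at 24 h, with overlapping libraries at every time and a change of 0.12 ± 0.23 (adjusted p = 0.69). CXCL2 (chr4:74962757-74964913) did not pass the filter: it was 0.260 to 0.288 FPKM at 0 h, 0.0816 to 0.364 at 1 h, 0.0759 to 0.333 at 2 h, and 0, 0.0812 and 0.185 at 24 h, where replicate 1 is listed at 0. In a fit with no filter on genes its change at 24 h was -0.41 (adjusted p = 0.11). IL8 (chr4:74606236-74609433) was 0.235, 0.306 and 0.145 FPKM at 0 h, 0.720, 0.275 and 0.361 at 1 h, 0.736, 0.541 and 0.634 at 2 h and 1.04, 1.34 and 0.297 at 24 h. The 2 h libraries were above the 0 h ones, but 24 h replicate 3 overlapped 0 h. The changes were 0.64 ± 0.29 at 2 h (adjusted p = 0.32) and 0.85 ± 0.29 at 24 h (adjusted p = 0.025), and without 24 h replicate 3 the latter was 1.21 and called. IL8, like CXCL1 and BIRC3, was above 0.5 FPKM in fewer than 3 of the 0 h libraries and passed the filter through its hypoxic ones. Of the receptors of these chemokines, CXCR1 and CXCR2 did not pass the filter, the highest value being 0.241 FPKM.

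Counted over the 10 genes, 6 were above every 0 h library at 24 h (NFKB2, RELA, RELB, NFKBIA, TNFAIP3 and BIRC3), and 2 below (NFKB1 and CXCL2). Of all tested gene names, which do not include CXCL2, 27.6% were above and 32.8% below. At 2 h RELB, BIRC3 and IL8 were above (12.2% of all) and RELA was below (13.1% of all). At 1 h RELA was below 0 h (7.33% of all) and no member was above (6.36% of all). At an adjusted p under 0.05 with no fold threshold, 7 of 9 members were higher at 24 h, beside 25.0% of all gene names, and none was lower, beside 30.3%. BIRC3 and IL8 are among the 7 and passed the filter only with hypoxic libraries counted, so the count is a description and no support for a change of the group.

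The make-up of the transcripts was tested as the usage of each. Of 10680 genes with at least 2 transcripts past the filter, 3684 (34.5%) had a transcript whose share relative to the others of the gene differed at 24 h (adjusted p under 0.05), and among the 4 members that could be tested, RELA and NFKB2 did (adjusted p = 0.00088 and 0.0058). RELB and NFKB1 did not pass (0.075 and 0.22). The NFKB2 call was lost with a pseudocount of 0.1 (0.055), and RELB was called by diffSplice (0.0081) and with a pseudocount of 1 (0.047), as well as without 0 h replicate 2 (0.048). For RELA, most of the difference in the gene sum lay outside the reference transcript. ENST00000406246 was 23.1, 21.8 and 24.1 FPKM at 0 h and 23.0, 20.1 and 30.9 at 24 h, a change in level of 0.08 ± 0.16 (adjusted p = 0.75), while its share fell from 81.7% to 50.9% and its usage fell by 2.67 ± 0.31 on the log2 scale. All other RELA models together went from 5.17 ± 1.51 FPKM (SD, n = 3) at 0 h to 23.4 ± 0.786 at 24 h.

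Of the 6 RELA models past the filter, 3 were called higher. ENST00000525693, which spans 3183 bases and is typed protein coding, contains the whole of the last intron of ENST00000406246 (intron 10 of 10, chr11:65422472-65423158, 687 bases, coordinates of GENCODE release 44 lifted to GRCh37). It was 0.332, 1.504 and 0.722 FPKM at 0 h and 9.86, 11.4 and 9.98 at 24 h, a log2 rise of 3.10 ± 0.39 (adjusted p = 0.00023), and it took 22.0% ± 4.28 of the RELA sum at 24 h. A new model of 3636 bases, nearest to the nonsense-mediated decay transcript ENST00000526283, was 0.378, 0.0858 and 0.0290 FPKM at 0 h and 5.26, 5.36 and 4.14 at 24 h. The log2 difference was 3.06 ± 0.29 (adjusted p = 4.4e-05), but this model passed the filter only with the 24 h libraries counted, so its call is a description. The model ENST00000526738, of 1022 bases and typed retained intron, rose by 1.71 ± 0.29 (adjusted p = 0.0014). In GENCODE its exons contain no whole intron of ENST00000406246. Among 62162 transcripts tested, 5.00% were called higher. The division of reads among overlapping models was estimated by Cufflinks, so these values depend on its assembly.

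**Figure D3:**
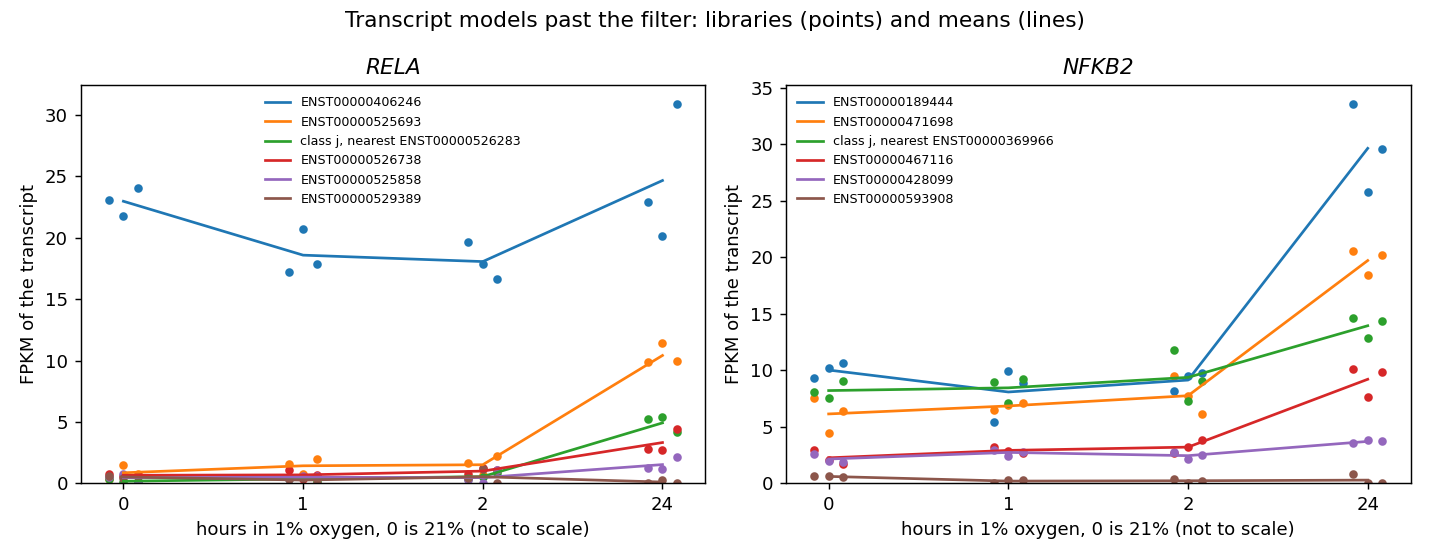
FPKM (vertical axis) of the transcript models of RELA (left) and NFKB2 (right) past the filter, against time, with a point per library and a line through the means. For RELA the reference transcript overlaps between 0 h and 24 h and ENST00000525693 stands apart at 24 h. For NFKB2 the points of ENST00000189444 at 24 h lie above all earlier ones.

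For NFKB2, 3 of the 6 models past the filter were called higher. The coding transcript ENST00000189444 went from 9.28, 10.2 and 10.6 FPKM at 0 h to 33.6, 25.8 and 29.6 at 24 h (1.51 ± 0.20, adjusted p = 0.00031), and the models typed retained intron, ENST00000471698 and ENST00000467116, rose by 1.63 ± 0.20 (adjusted p = 0.00018) and 1.84 ± 0.21 (adjusted p = 0.00014). In GENCODE ENST00000471698 has 801 bases and contains introns 1 and 4 of ENST00000189444. The deposited model has 472 bases, so whether it holds them cannot be told from the annotation. The change in usage lay on ENST00000593908, a rare model whose share was 2.02% at 0 h and 0.327% at 24 h. It was 0.647, 0.616 and 0.549 FPKM at 0 h and 0.832, 0 and 0 at 24 h, so the libraries overlap in level. It passed the filter only with the 0 h libraries counted, and no other NFKB2 model passed in usage in the main fit, so the NFKB2 usage call is a description. With the filter at FPKM above 1, the downstream-start model nearest ENST00000369966 passed (-0.84, adjusted p = 0.036 by limma). With a pseudocount of 1 that model and ENST00000428099 passed too (adjusted p = 0.027 and 0.020 by limma). Transcripts from the downstream start, at which the window with 2 κB matches lies, went from 26.6 ± 2.09 FPKM to 72.5 ± 7.17 (SD, n = 3). ENST00000428099, from the upstream start whose window has no match, went from 2.14 ± 0.387 to 3.71 ± 0.121 (0.68 ± 0.18, adjusted p = 0.018). The model ENST00000369966 in a start group of its own, whose GENCODE start lies nearest the middle window with 3 matches, did not pass the filter, at 0.354 ± 0.282 FPKM at 0 h and 0.136 ± 0.236 at 24 h. The downstream start carried most of the sum at both times.

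Other genes of the pathway were read from 3 lists: further factors and inhibitors, upstream signalling, and targets. Of the 57 that passed the filter, 8 were called higher and 2 lower at 24 h, beside 8.76% and 9.51% of all gene names, and none was called at 1 or 2 h. Under TPM 1 of 56 was called higher and 11 lower, at a median of all genes of -0.78. At an adjusted p under 0.05 with no fold threshold, beside 25.0% higher and 30.3% lower of all gene names, the factors and inhibitors had 6 higher and 3 lower of 14, the upstream genes 4 higher and 12 lower of 29, and the targets 6 higher and 3 lower of 14. Among 14 factors and inhibitors BCL3, a nuclear IκB that binds the NFKB2 product, went from 3.78, 4.04 and 4.67 FPKM to 16.9, 18.4 and 16.5 (1.93 ± 0.16, adjusted p = 1.8e-06). TNIP1, which binds TNFAIP3, went from 14.4, 13.7 and 13.4 FPKM to 53.4, 43.7 and 38.2 (1.66 ± 0.12, adjusted p = 7.9e-07). NFKBIB, which encodes IκBβ, fell from 38.0 ± 4.68 to 15.6 ± 3.76 FPKM (SD, n = 3; -1.28 ± 0.18, adjusted p = 7.9e-05). The median of this list was 0.19, of the 9 tested members 0.79 (IL8, BIRC3 and CXCL1 passed the filter only with hypoxic libraries counted) and of all tested genes -0.05 on the log2 scale.

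Upstream, 1 of 29 genes was called higher and 1 lower, beside 8.76% and 9.51% of all gene names. IL1RAP, the accessory chain of the IL-1 receptor, went from 0.805, 0.746 and 0.943 FPKM to 3.83, 7.21 and 8.56 (2.34 ± 0.24, adjusted p = 9.5e-06), and CHUK, the kinase IKKα, went from 38.2, 36.4 and 33.5 to 18.4, 16.1 and 14.4 (-1.12 ± 0.14, adjusted p = 3.5e-05). MAP3K14 was not called (-0.18 ± 0.24). The median of the list was -0.18.

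Among 30 targets only 14 passed the filter, and 5 were called higher at 24 h, beside 8.76% of all gene names. IER3, an early response gene, went from 150.3, 170.6 and 191.2 FPKM to 955.6, 761.3 and 583.2 (2.14 ± 0.32, adjusted p = 0.00015). JUNB, LIF, PLAU and TNFAIP8 rose by 1.55, 1.52, 1.37 and 1.28 on the log2 scale. None of the 14 was called lower at the fold threshold, beside 9.51% of all gene names. The 3 that were lower at an adjusted p under 0.05 were SOD2, the mitochondrial superoxide dismutase (-0.65 ± 0.09, adjusted p = 8.4e-05), the transcription factor IRF1 (-0.63 ± 0.15, adjusted p = 0.0038) and TRAF4 (-0.24 ± 0.08, adjusted p = 0.027). The median of the list was 0.34. Of the 16 that did not pass, 7 were at 0 in all 12 libraries (IL6, TNF, IL1B, CCL2, CXCL6, CXCL10 and VCAM1), and the highest value of any of them was 0.524 FPKM, of PTGS2. 

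**Figure D4:**
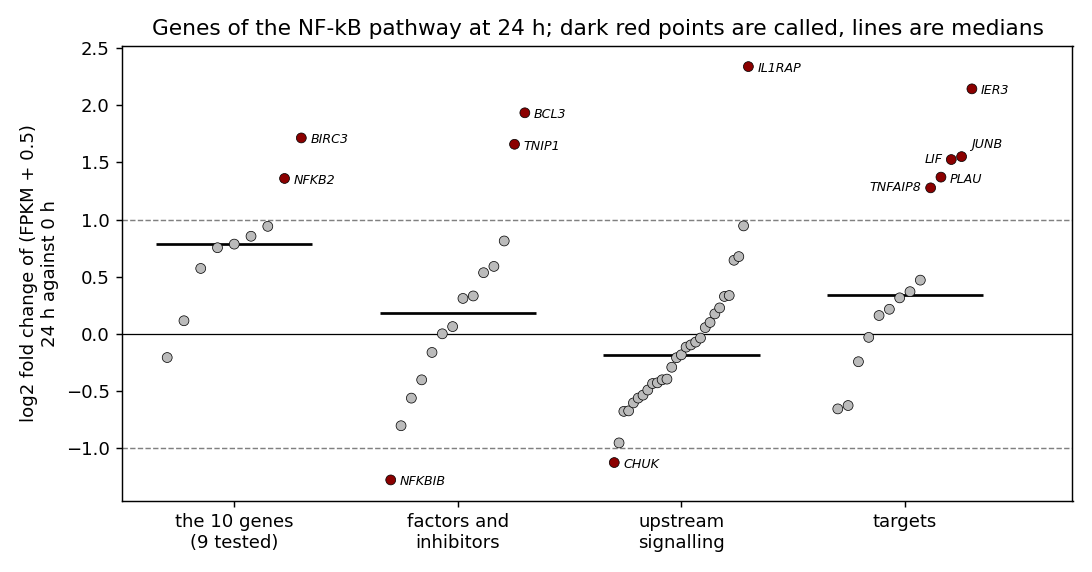
Log2 fold change (24 h against 0 h, FPKM plus 0.5) of every tested gene in the 4 lists; dark red points are called, black lines are medians and dashed lines mark a fold change of 1. The line of the members lies at 0.79, over 9 genes of which IL8, BIRC3 and CXCL1 passed the filter only with hypoxic libraries counted, and that of the targets at 0.34.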

How the data were processed

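Polyadenylated RNA of HCT116 cells was sequenced in 12 libraries. The authors deposited FPKM values per transcript and library and, in a second file, class codes, gene names and lengths. They mapped reads to hg19, assembled transcripts with Cufflinks, joined the assemblies to Ensembl models and quantified those in FPKM. The submitters' processing notes name CASAVA 1.8.2 and Cufflinks. No column of another series was used.

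FPKM was summed per gene name over transcripts of class code = or j. Names with a sum above 0.5 in at least 3 libraries were kept. limma 3.58.1 in R 4.3.3 fitted log2(FPKM + 0.5) over all 12 libraries, with lmFit and eBayes with trend. Calls needed an absolute log2 fold change above 1 and a Benjamini-Hochberg adjusted p under 0.01 over 16680 names. The fold change understates changes of low genes. Isoform usage was tested with limma on the log2 ratio of each transcript to the other transcripts of its gene. All p-values are two-sided. The scripts were tested on simulated data. Tables and figures used Python 3.11.15, numpy 2.4.6, pandas 2.3.3 and matplotlib 3.10.9. All 10 members were named in the text, with list genes past the threshold, at most 6 per list, and the genes most like each tested member by Pearson's r. The members, lists and tests were chosen with earlier results of these data known.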

Additional observations from a re-analysis of the deposited data

Results flagged for a closer look

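For NFKB2 and RELA the effect at 24 h differed from that at 2 h. Tested directly as 24 h against 2 h, NFKB2 was 1.23 higher on the log2 scale (SE 0.10, adjusted p = 2.5e-06 by limma) and RELA 1.01 higher (SE 0.10, adjusted p = 7.1e-06), and in both genes 3 of 3 libraries at 24 h exceeded 3 of 3 at 2 h. When single libraries were left out the NFKB2 difference was 1.17 to 1.31 and that of RELA 0.92 to 1.09. The RELA call was lost without 2 h replicate 2 (0.98) and without 24 h replicate 3 (0.92), and also with a pseudocount of 1, with class code = only and with TPM restricted to transcripts of 300 bases or more. Under TPM over all transcripts both calls were lost (NFKB2 1.41, adjusted p = 0.027; RELA 1.18, adjusted p = 0.073, both by limma).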

How the results depend on the processing

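Members called at 24 h numbered 2 (NFKB2 and BIRC3). They numbered 4 after the filter was set on transcripts (RELB and TNFAIP3 added), 7 without the fold threshold (adjusted p under 0.05) and 0 after TPM, which tested 7 of them. With TPM restricted to transcripts of 300 bases or more they remained 2. Leaving out single libraries gave 2 to 4, the 4 without 24 h replicate 3 (NFKBIA and IL8 added). All gene names called were 3048, and 9228 without the fold threshold. For 24 h against 2 h the count of 2 became 1, with RELA lost, with a pseudocount of 1, with class code = only, with TPM restricted to transcripts of 300 bases or more, 0 with TPM, and 5 without the fold threshold, and it ranged from 1 to 3 when single libraries were left out: 1 without 2 h replicate 2, 3 without 2 h replicate 3. No member was called at 1 or 2 h under any alternative run.

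Isoform usage of members fell from 2 to 1 (RELA) with a pseudocount of 0.1. It was 3, with RELB added, with a pseudocount of 1 and with diffSplice, and 2 to 3 when single libraries were left out (3 without 0 h replicate 2, again with RELB). Over all genes it was 3684, and 1694 with only 6 libraries, 2225 without 0 h replicate 1, 2440 without 0 h replicate 2 and 2447 without 24 h replicate 2. A fit per transcript called a transcript of 3 members.

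TPM reversed RELA (-0.10) and TNFAIP3 (-0.02) at 24 h and RELB at 2 h (-0.33); against the median of all genes under TPM, RELA was 0.68 and TNFAIP3 0.76 higher at 24 h, and RELB was 0.61 higher at 2 h, where that median was -0.94. CXCL1 at 24 h ranged from -0.04 to 0.29 when single libraries were left out. Of 339 member fold changes under an alternative, 309 kept their direction and side of the threshold, 17 newly passed it, 9 no longer did and 4 reversed. The cause was not tested, except that TPM divides by sums held mostly by short transcripts.

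Replicate numbers recur at each time, but same-numbered libraries did not all deviate together (mean correlation 0.154, from -0.0833 to 0.428 over 18 pairs; 10 of 12 libraries correlated best with their own number). With the replicate number as a block, 2 members and 3106 gene names were called at 24 h, and no call of a member changed. FPKM carry no counts, so no counting limit is given for the chemokines, at most 1.34 FPKM.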

Other observations

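Of the 14 tested NF-κB targets, 3 lay above every 0 h library at 1 h and 1 below, and at 2 h 5 lay above and 2 below, beside 6.36% and 7.33% of all genes at 1 h and 12.2% and 13.1% at 2 h. None passed the threshold, and the median log2 changes were 0.03 and -0.01. The genes named here were chosen after their values were seen. JUNB, a subunit of AP-1, was 17.5, 18.8 and 20.7 FPKM at 0 h, 42.3, 38.8 and 99.6 at 1 h, and 45.4, 38.9 and 126.9 at 2 h, all above 0 h; its change at 2 h was 1.66 ± 0.40 on the log2 scale (adjusted p = 0.11 by limma). IER3 was 271.1, 293.8 and 522.6 FPKM at 1 h and 327.3, 347.0 and 782.0 at 2 h, with a change at 2 h of 1.39 ± 0.32 (adjusted p = 0.10 by limma). In both genes replicate 3 was the highest library at 1 h and at 2 h, and neither change passed the threshold. IRF1 was the reverse, at 7.96, 9.61 and 8.75 FPKM at 0 h, 5.87, 6.16 and 5.35 at 1 h and 7.17, 7.25 and 4.98 at 2 h, with a change at 2 h of -0.43 ± 0.15 (adjusted p = 0.22 by limma).

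By Pearson's r over the 12 libraries, which share time points, the genes whose pattern was most like NFKB2 were KB-1460A1.5 (0.992), MAML3 (0.991) and FTH1 (0.991). For RELA they were POFUT2 (0.988), TM9SF4 (0.986) and RRBP1 (0.983), and for BIRC3 they were BTG2 (0.984), FAM102B (0.977) and TMEM65 (0.977). For NFKBIA they were NKX1-2 (0.957), ATG4D (0.942) and MYH15 (0.941), for RELB CCDC50 (0.949), AXIN1 (0.948) and ELL (0.929), and for TNFAIP3 MYO1D (0.960), BMP7 (0.948) and MYO5B (0.945). For NFKB1 they were SIRPB1 (0.912), TLN2 (0.876) and SMEK1 (0.875), for IL8 CTA-29F11.1 (0.922), MAPKAPK5-AS1 (0.919) and RAB9A (0.915), and for CXCL1 TRAPPC2P1 (0.844), COX20P2 (0.818) and RP11-382A18.2 (0.794). The values describe these libraries and say nothing of shared function.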
